A study of Mus musculus with 14 samples.

Results

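Myoglobin, the enzymes that make and break down haem, and the proteins that take up, store and export iron form a short chain of genes in skeletal muscle. Its 8 members here, taken by gene symbol from the count table, were Mb, Alas1, Fech, Hmox1, Tfrc, Fth1, Ftl1 and Slc40a1, 8 of 52550 genes listed. All 8 passed the filter on low counts and were among the 11088 genes tested. The RNA came from triceps of male mice, which were FLExDUX4 or their WT littermates and were kept with a running wheel, used at will over 6 weeks, or without one. There were 3 WT controls, 3 FLExDUX4 controls, 4 WT runners and 4 FLExDUX4 runners, each mouse giving 1 library of 3′-end reads, which count transcripts by their ends. FLExDUX4 mice carry a transgene for the human transcription factor DUX4, whose misexpression in muscle is linked to facioscapulohumeral muscular dystrophy. The labels name no Cre line, inducing agent or age for any group, the running distance of each mouse is not given in them, and no row of the table is named DUX4, so transgene expression was not analysed here.

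Myoglobin is the oxygen-binding haem protein of muscle fibres and is most abundant in oxidative fibres, which use oxygen to make energy. Haem is built in a path that starts with Alas1 and ends with Fech, which inserts iron into the ring; Hmox1 cleaves haem and frees the iron. Iron enters cells through the transferrin receptor Tfrc, is stored inside shells of the ferritin chains Fth1 and Ftl1, and leaves through ferroportin, the product of Slc40a1. Much of the control of Tfrc, the ferritins and Slc40a1 acts on RNA stability and translation through iron-regulatory proteins, and translation is not measured by RNA counts.

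The libraries held 3269357 to 6995811 gene counts each, of which 20.5% to 39.8% came from the mitochondrial genome. Summed markers of skeletal muscle (7 genes such as Ckm, Acta1 and the fast myosin Myh4) reached 62806 to 111585 CPM (counts scaled to a common library size). The tissue label thus had its defining transcripts in every library. Summed slow-fibre markers (12 genes, all with counts in each group) ranged over 50.2 to 66.0 CPM in WT controls, 215 to 548 in FLExDUX4 controls, 149 to 861 in WT runners and 68.7 to 1133 in FLExDUX4 runners. In whole muscle, fewer cells of a type and less RNA per cell cannot be told apart. CPM values are scaled with trimmed-mean (TMM) factors and are not divided by transcript length, so they are compared between mice and not between genes.

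Mb differed most between mice of the 8 genes. Across 14 mice its highest level was 12.2 times its lowest, whereas for Fth1 this ratio was 1.29. Only Alas1 passed the test, in the comparison of runners with controls averaged over both genotypes, and the other members passed in none of the 7 comparisons made by edgeR's quasi-likelihood test at a Benjamini-Hochberg adjusted p under 0.05. The identity of the called gene changed with the method, as given below. In that averaged comparison Mb and not Alas1 passed with limma-voom and without the robust estimate of spread. Both passed there with DESeq2 and with library sizes taken from spike-in RNA. For running in WT mice, Mb alone passed with DESeq2, with limma-voom and without the robust estimate.

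Mb lies on the minus strand of chromosome 15 (GRCm38, 77015487 to 77050670; ENSMUSG00000018893). Because Mb was the most variable member, the stretch just before one of its listed start sites is shown, from RefSeq on GRCm38.p6 at chr15:77022788-77023037, minus strand, read 5′ to 3′ towards the start site. This window was chosen, after the expression values were known, as the only listed window of Mb that overlaps no exon in GENCODE M21. Capitals mark matches to the E-box, CANNTG, the letters bound by muscle basic helix-loop-helix factors and many others.

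Mb: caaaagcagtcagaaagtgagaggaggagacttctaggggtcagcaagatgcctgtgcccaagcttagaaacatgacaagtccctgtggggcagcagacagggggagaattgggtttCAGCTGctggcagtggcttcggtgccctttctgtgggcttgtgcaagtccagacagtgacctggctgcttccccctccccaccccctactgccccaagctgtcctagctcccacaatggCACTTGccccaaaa

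The window held 2 E-boxes, and 66.22% of 32851 RefSeq windows of 250 bases held at least 1 on either strand, so the match is common. In all, 6 motif definitions were searched, on both strands. Of the other 5, the antioxidant response element core TGACNNNGC had 1 match in the Mb window (10.16% of windows hold it), and TATAAA (12.37%), the ERR half-site AAGGTCA (4.08%) and both spellings of the NRF-1 core, TGCGCA (6.43%) and GCGCANGCG (5.16%), had 0. The motifs were picked with expression results known, and the second NRF-1 spelling was added after TGCGCA had given 0 matches and the letters of the Alas1 windows had been read. It has 3 overlapping or neighbouring matches in 1 of 2 listed Alas1 windows, which were used to choose it, so that match supports nothing. A match of letters is a description and not a binding site.

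In WT mice, Mb was at 356, 389 and 338 CPM in the 3 controls and at 3794, 1687, 1173 and 4130 CPM in the 4 runners. Every WT runner was above every WT control, and the runners themselves fell into a high pair (runners 1 and 4) and a low pair (runners 2 and 3). The group means were 361 ± 25.98 (SD, n = 3) and 2696 ± 1483 CPM (SD, n = 4). The fitted log2 difference was 2.90 ± 0.63 (SE), a fold of 7.47 with a 95% interval of 2.83 to 19.7, and the adjusted p was 0.0843 (edgeR), above the threshold. Mb and Alas1 were the 2 members whose groups did not overlap in this comparison, where 10.3% of all tested genes did not overlap; 0 of 8 members were called against 0.496% of all genes.

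The Mb call in WT mice depended on the method. The adjusted p was 3.6e-05 with DESeq2, 0.00524 with limma-voom, 0.000617 without the robust estimate of spread and 0.0204 with library sizes taken from spike-in RNA, and it stayed above the threshold with other size factors (0.0860), with only the WT mice fitted (0.112) and with slow-fibre markers as a covariate (0.194). Leaving out WT runner 3 or FLExDUX4 runner 4, the lowest runner of each genotype, brought it to 0.0359 and 0.0341, while without any 1 of the other 12 mice Mb was not called. In the authors' deposited table, which signs the difference as controls minus runners, Mb stood at a log2 fold change of -1.22 with an adjusted p of 0.00122 in WT mice. Its size is not like that found here, as DESeq2 run here gave 2.90 ± 0.52 (SE) for runners minus controls. Why the sizes differ was not tested. That comparison of the authors' deposited table called 9.9% of 3021 genes with an adjusted p.

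In FLExDUX4 mice, Mb was at 762, 1387 and 1235 CPM in the controls and at 2000.4, 3816, 1856 and 651 CPM in the runners. FLExDUX4 runner 4 was below all 3 FLExDUX4 controls, while the other 3 runners were above them, so the groups overlapped, as they did for all 8 members (7.17% of all genes did not overlap). The means were 1128 ± 326 (SD, n = 3) and 2081 ± 1305 CPM (SD, n = 4), with a log2 difference of 0.88 ± 0.58 and an adjusted p of 0.840 (edgeR). No member passed the test here, nor did any of the 11088 genes (0%), though 738 genes and 2 of the members, Alas1 and Slc40a1, had an unadjusted p under 0.05.

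Without a wheel, Mb was higher in each FLExDUX4 mouse than in any WT mouse. The log2 difference between FLExDUX4 and WT controls was 1.64 ± 0.62, a fold of 3.13 with a 95% interval of 1.20 to 8.12, and it did not pass (unadjusted p = 0.0238, adjusted p = 0.969, edgeR). Fitting only these 6 mice gave 1.65 ± 0.18 and an adjusted p of 0.000742, a fit in which the spread of the runners had no part. Mb and Ftl1 were the 2 members whose control groups did not overlap, against 11.4% of all genes, and 0% of genes were called in the fit of all mice (554 had an unadjusted p under 0.05). Summed slow-fibre markers were also higher in each FLExDUX4 control than in any WT control, at the levels given above. With these markers, averaged as log2 CPM, as a covariate, the log2 difference was 0.54 ± 0.29 (adjusted p = 1.00). The covariate itself did not overlap between the control groups, at 1.86 to 2.24 in WT mice and 3.64 to 5.14 in FLExDUX4 mice, so among controls it and genotype cannot be told apart.

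After running, the genotypes overlapped in Mb, with a log2 difference of -0.37 ± 0.52 (95% interval -1.53 to 0.79, adjusted p = 0.999, edgeR). The test of whether running acted alike in both genotypes gave a log2 difference of -2.02 ± 0.81 between the running effects, with an unadjusted p of 0.0309 and an adjusted p of 0.954 (edgeR). Thus the larger Mb difference in WT mice was not shown to differ from that in FLExDUX4 mice. Ordered by mean Mb level from low to high, the groups were WT controls, FLExDUX4 controls, FLExDUX4 runners and WT runners, and of the neighbours in that order only the control groups were without overlap. Averaged over genotype, runners exceeded controls by 1.89 ± 0.42 (adjusted p = 0.0774, edgeR), with an adjusted p of 0.000151 in DESeq2, 0.00745 in limma-voom, 0.00105 without the robust estimate and 0.0305 with spike-in library sizes. It was 0.0387 without WT runner 3 and 0.0196 without FLExDUX4 runner 4.

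**Figure D1:**
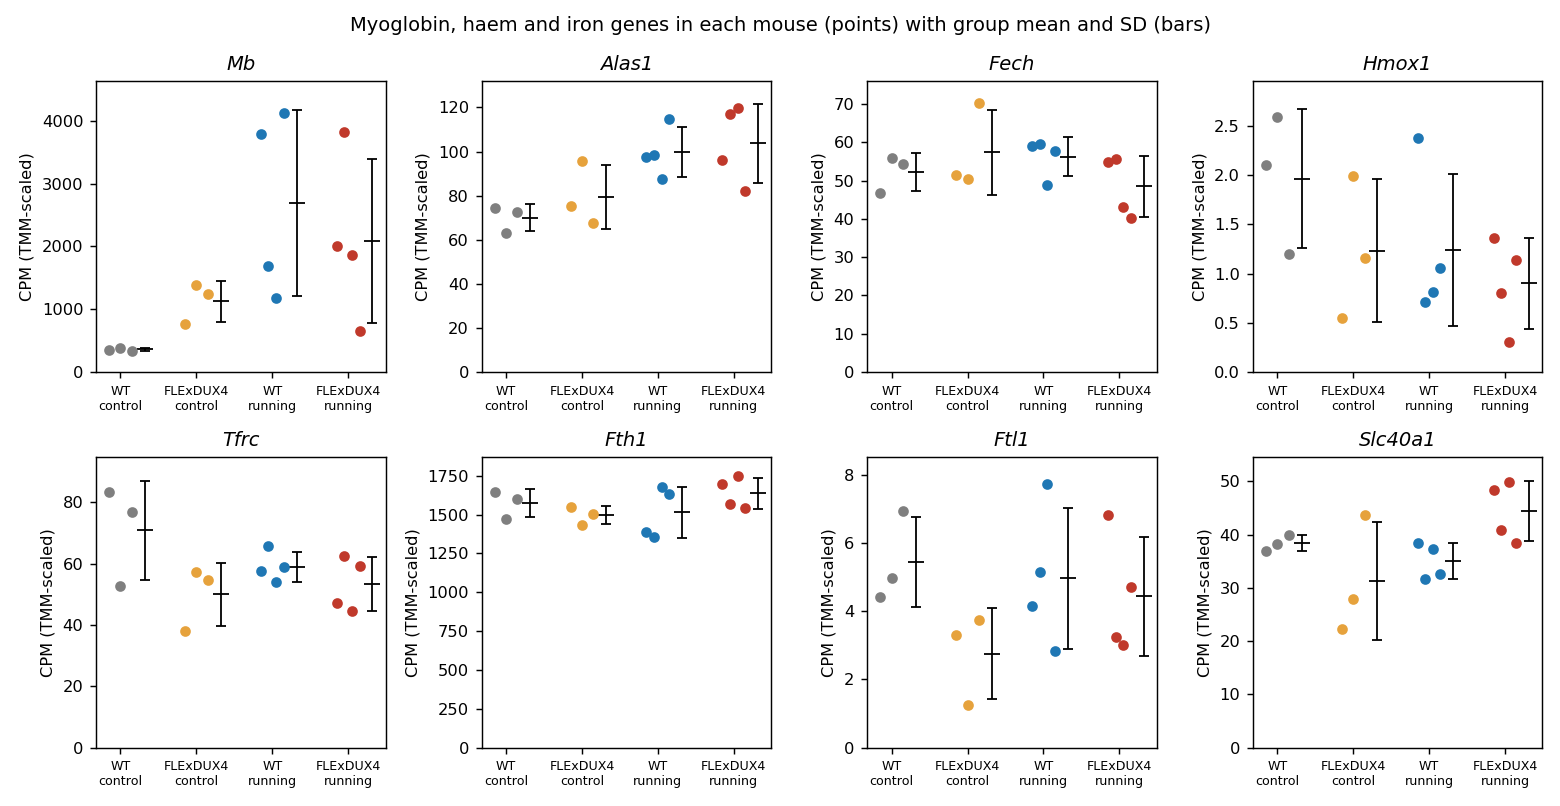
Level of each of the 8 genes in every mouse (points; y axis in TMM-scaled CPM, starting at 0), by group, with the group mean and SD as bars. Mb spans 338 to 4130 CPM, and Fth1 stays between 1358 and 1746 CPM in all groups.

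Alas1, the enzyme that sets the pace of haem synthesis outside red blood cells, lies on chromosome 9 (GRCm38, 106233455 to 106248654, minus strand; ENSMUSG00000032786). In WT controls it was at 74.3, 62.9 and 72.5 CPM, and in WT runners at 97.6, 98.6, 87.7 and 115 CPM. In FLExDUX4 controls it was at 75.2, 95.8 and 67.7 CPM, and in FLExDUX4 runners at 96.0, 117, 120 and 82.1 CPM. All 4 WT runners were above all WT controls, while FLExDUX4 runner 4 was below FLExDUX4 control 2.

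Alas1 rose with running averaged over genotype by 0.45 ± 0.11 on the log2 scale, a fold of 1.36 with a 95% interval of 1.161 to 1.601 and an adjusted p of 0.0463 (edgeR). It was 1 of 8 members called, all higher, where 0.857% of all tested genes were called in either direction (61 higher and 34 lower). The call was narrow: the adjusted p was 0.0518 with other size factors, 0.0652 with limma-voom, 0.0617 without the robust estimate and 0.352 with the slow-fibre covariate, and 0.0173 with DESeq2. Leaving out any 1 of 11 mice took it above the threshold, up to 0.148 without FLExDUX4 control 3; it remained called without FLExDUX4 control 2, WT runner 3 or FLExDUX4 runner 4.

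By genotype, Alas1 differed between runners and controls by 0.51 ± 0.16 in WT mice (adjusted p = 0.148) and by 0.38 ± 0.16 in FLExDUX4 mice (adjusted p = 0.710), both in edgeR. The difference between these effects was -0.13 ± 0.23, with a 95% interval of -0.59 to 0.33. In the authors' deposited table, Alas1 stood at a log2 fold change of -0.47, controls minus runners, with an adjusted p of 0.0393 in WT mice. FLExDUX4 and WT mice differed in Alas1 by 0.18 ± 0.17 without a wheel and by 0.05 ± 0.15 after running, and neither passed.

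Fech, on chromosome 18 (GRCm38, 64452914 to 64490251, minus strand), encodes the enzyme of the closing step of haem synthesis. It was at 46.7, 55.96 and 54.5 CPM in WT controls and at 59.2, 59.5, 48.9 and 57.7 CPM in WT runners. In FLExDUX4 controls it was at 51.6, 50.4 and 70.2 CPM, and in FLExDUX4 runners at 55.01, 55.7, 43.1 and 40.2 CPM. All 4 groups overlapped, and the log2 difference with running averaged over genotype was -0.07 ± 0.12, with a 95% interval of -0.32 to 0.17. Alas1 and Fech, the opening and closing steps of the same path, thus differed in whether they passed, but no test compared the genes with each other.

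Hmox1, the inducible haem oxygenase on chromosome 8 (GRCm38, 75093621 to 75100589), had only 1 to 12 counts per library. Its level was 1.97 ± 0.70 CPM in WT controls and 1.23 ± 0.73 in FLExDUX4 controls (SD, n = 3 each), and 1.24 ± 0.77 in WT runners and 0.90 ± 0.46 in FLExDUX4 runners (SD, n = 4 each). The log2 difference with running averaged over genotype was -0.53 ± 0.64, with a 95% interval of -1.84 to 0.77, so at this depth its direction is not settled.

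Tfrc, the receptor for iron-laden transferrin on chromosome 16 (GRCm38, 32608920 to 32632794), was at 83.3, 52.7 and 76.7 CPM in WT controls and at 38.1, 57.1 and 54.7 CPM in FLExDUX4 controls. WT control 2 lay within the range of the FLExDUX4 controls and the other WT controls lay above it. Runners were at 54.0 to 65.7 CPM in WT mice and at 44.6 to 62.4 CPM in FLExDUX4 mice. The log2 difference between FLExDUX4 and WT controls was -0.50 ± 0.19 (unadjusted p = 0.0135, adjusted p = 0.969, edgeR), and averaged over running it was -0.32 ± 0.13 (unadjusted p = 0.0155, adjusted p = 0.998). Running gave -0.26 ± 0.18 in WT mice and 0.09 ± 0.18 in FLExDUX4 mice, and neither passed.

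Fth1, the ferritin heavy chain that oxidises iron for storage, lies on chromosome 19 (GRCm38, 9980598 to 9985098) and was the steadiest member. Its values were 1642, 1472 and 1602 CPM in WT controls, 1547, 1432 and 1503 in FLExDUX4 controls, 1388, 1358, 1677 and 1632 in WT runners, and 1699, 1567, 1746 and 1539 in FLExDUX4 runners. Its coefficient of variation over 14 mice was 7.55%, against 78.7% for Mb. The log2 difference with running averaged over genotype was 0.04 ± 0.09, with a 95% interval of -0.15 to 0.23. Intervals of the other comparisons of Fth1 also included 0.

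Ftl1, the ferritin light chain, lies on chromosome 7 (GRCm38, 45457944 to 45459884, minus strand) and had only 5 to 38 counts per library. It was at 4.42, 4.97 and 6.92 CPM in WT controls and at 3.29, 1.25 and 3.73 CPM in FLExDUX4 controls, without overlap. The log2 difference was -0.93 ± 0.54 (unadjusted p = 0.0903, adjusted p = 0.972, edgeR), and runners of both genotypes spanned 2.83 to 7.71 CPM. Of the 389 distinct 75-base windows in the last 300 bases of its annotated coding transcripts, 65.04% also occur in transcripts of other genes, namely Ftl1-ps1, Ftl1-ps2, Gm12164, Gm15590 and the miRNA gene Gm22133, which lies inside Ftl1. The rows of those genes held 0 counts in all mice. How reads with several alignments were handled is not given in the sources used here, so the level of Ftl1 is uncertain, and whether reads were lost to these copies was not tested.

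The same count of windows gave 5.24% for Fth1, shared with Gm6977 (70 counts in all mice), and 0% for Alas1, Fech, Hmox1, Tfrc and Slc40a1. For Mb it gave 52.48%, shared only with Gm49540, an antisense gene at the same locus that has no row in the table. Mb also overlaps Apol6, and Alas1 overlaps 4930500F10Rik, both on the opposite strand. The strand setting of the counting is not given in the sources used here, so reads of Mb and of Gm49540 cannot be told apart. The windows of Alas1 shared no sequence with 4930500F10Rik on either strand, nor did those of Mb with Apol6. Parts of Mb and Alas1 outside these windows were not compared. This check was added after the expression values were known.

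Slc40a1 encodes ferroportin, the exporter of cellular iron, and lies on chromosome 1 (GRCm38, 45908068 to 45926523, minus strand). It was at 37.02, 38.2 and 40.02 CPM in WT controls and at 22.2, 27.9 and 43.6 CPM in FLExDUX4 controls. In WT runners it was at 38.4, 31.6, 37.4 and 32.6 CPM, and in FLExDUX4 runners at 48.4, 40.9, 50.0 and 38.5 CPM. Every FLExDUX4 runner was above every WT runner, by a small margin for the closest pair, and Slc40a1 was the only member without overlap there, against 2.51% of all genes.

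The FLExDUX4 minus WT difference of Slc40a1 in runners was 0.34 ± 0.18 on the log2 scale (unadjusted p = 0.0651, adjusted p = 0.999, edgeR). Running gave -0.14 ± 0.20 in WT mice (adjusted p = 0.882) and 0.49 ± 0.20 in FLExDUX4 mice (unadjusted p = 0.0187, adjusted p = 0.710). The difference between the running effects was 0.62 ± 0.28, with an unadjusted p of 0.0314 and an adjusted p of 0.954 (edgeR), so it did not pass. Ferroportin is abundant in macrophages, whose summed markers (11 genes) ranged over 67.7 to 135 CPM in WT controls, 61.7 to 117 in FLExDUX4 controls, 71.2 to 159 in WT runners and 87.7 to 120 in FLExDUX4 runners. Of these markers 10 of 11 had a count in WT controls and all had one in each other group. Their part in the Slc40a1 levels was not tested.

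**Figure D2:**
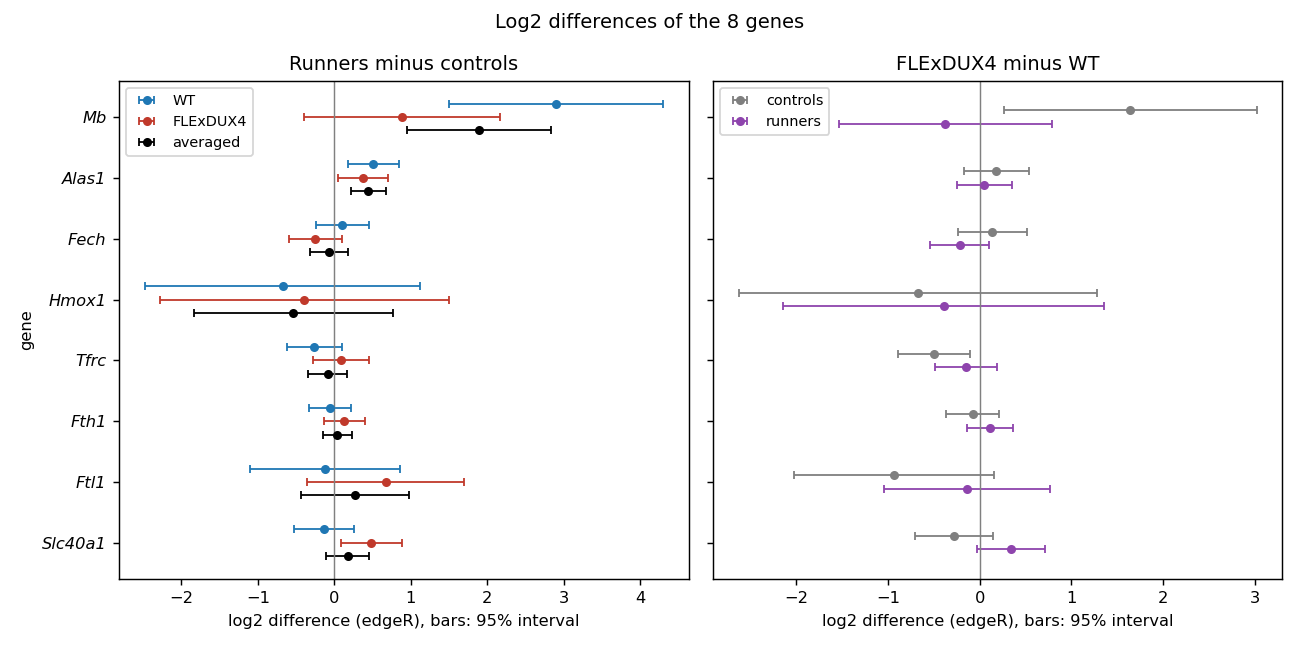
Log2 differences of the 8 genes from edgeR (x axis, with 95% intervals as bars), runners minus controls on the left and FLExDUX4 minus WT on the right. Mb has the largest point estimates, 2.90 for running in WT mice and 1.64 for genotype in controls, and intervals of Hmox1 and Ftl1 are wide.

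Over the 8 genes, the median log2 difference with running averaged over genotype was 0.11, with 5 above 0, against a median of 0.01 over all 11088 genes. In WT mice the median was -0.09 with 3 above 0, and in FLExDUX4 mice it was 0.26 with 6 above 0; both comparisons have their own controls. For running in WT mice, 2 members (Mb and Alas1) had an unadjusted p under 0.05, where 1182 of all genes (10.7%) had one. For genotype in controls there were 2 (Mb and Tfrc) beside 554 genes (5.0%), and for genotype averaged over running 1 (Tfrc) beside 418 genes (3.8%). For the interaction there were 2 (Mb and Slc40a1) beside 537 genes (4.8%), and for genotype in runners 0 beside 350 genes (3.2%). In each of these genotype and interaction comparisons, 0% of genes were called.

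The level of Mb went along with that of fibre-type transcripts from mouse to mouse. Myh2, the myosin heavy chain of oxidative IIa fibres, was at 54.0 to 79.5 CPM in WT controls and at 457 to 593 CPM in FLExDUX4 controls. In WT runners 1 to 4 it was at 2349, 643, 149 and 1337 CPM, and in FLExDUX4 runners 1 to 4 at 1096, 1646, 755 and 186 CPM. The 2 runners lowest in Myh2, WT runner 3 and FLExDUX4 runner 4, were also the lowest in Mb within their groups.

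Among the 8 runners, Pearson's r between log2 CPM of Mb and Myh2 was 0.911 (exact two-sided permutation p = 0.00144, adjusted p = 0.0202) and Spearman's rho was 0.881 (exact permutation p = 0.00724). Without the 2 runners farthest from the median of Myh2, r was 0.870. Against the slow-fibre markers, averaged as log2 CPM, r was 0.886 (exact permutation p = 0.00253, adjusted p = 0.0202) and rho 0.905 (exact permutation p = 0.00456), and r was 0.882 without the 2 farthest runners. These are 2 of 16 relations computed, 8 genes by 2 measures, and were chosen after the values were seen; the other 14 had adjusted exact permutation p-values of 0.232 or more. For Alas1 and Myh2, r was 0.674 (exact permutation p = 0.0724, adjusted p = 0.232) and -0.073 without the 2 farthest runners, so that relation rested on them. Between Alas1 and the slow-fibre markers, r was 0.673 (exact permutation p = 0.0723, adjusted p = 0.232). It was 0.485 without the 2 runners farthest from the median of that measure.

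The genes whose pattern was most like that of Mb, by Pearson's r of log2 CPM over 14 mice after subtraction of group means, were Cd36 (r = 0.969), a fatty acid carrier, Mdh1 (0.965), a malate dehydrogenase, Fabp3 (0.964), a fatty acid binding protein, Myoz2 (0.959), a Z-disc protein of slow fibres, and Slc25a20 (0.958), the mitochondrial carnitine carrier. The same measure was 0.897 for Myh2, 0.655 for Alas1, 0.596 for Fech and -0.068 for Fth1, and -0.842 for Myh4, the myosin of fast glycolytic fibres. These values share libraries and scaling and are given as a description. With the slow-fibre covariate, the running difference of Mb was 1.57 ± 0.28 in WT mice and 1.02 ± 0.19 averaged over genotype, where 2.90 and 1.89 were found without it. The covariate did not overlap between WT controls (1.86 to 2.24) and WT runners (2.69 to 5.89) either, so in WT mice it and running cannot be told apart.

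**Figure D3:**
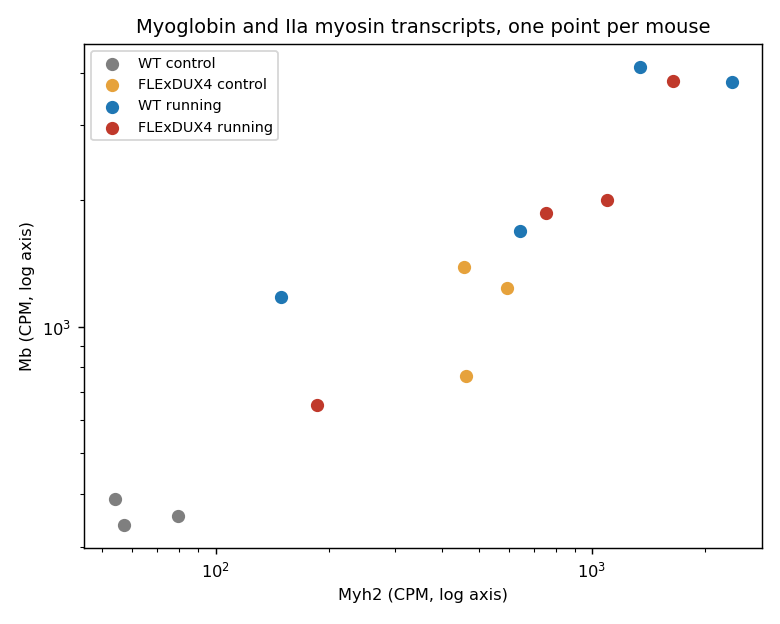
Mb against Myh2 in CPM, 1 point per mouse, both axes logarithmic, coloured by group. WT controls lie lowest on both axes, and among runners WT runner 3 and FLExDUX4 runner 4 have the least Myh2, at 149 and 186 CPM.

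Transcripts of some other cells in the sample also varied between groups. Summed red blood cell markers (6 genes, globins among them) were at 441 to 955 CPM in WT controls and 672 to 991 in FLExDUX4 controls. In WT runners they were at 1135 to 1840 CPM and in FLExDUX4 runners at 478 to 1743. Of these markers 5 of 6 had a count in FLExDUX4 runners and all had one in each other group. Summed endothelial markers (7 genes) were at 89.0 to 95.7 CPM in WT controls, 119 to 130 in FLExDUX4 controls, 152 to 233 in WT runners and 95.1 to 188 in FLExDUX4 runners. The WT runners were above the WT controls in both sums, as they were in Mb and Alas1. Summed fibroblast markers (5 genes) overlapped, at 718 to 1045 CPM in WT controls and 736 to 969 in WT runners. Summed fat cell markers (4 genes) overlapped too, at 22.3 to 35.6 CPM in WT controls and 3.17 to 28.1 in WT runners. Summed skeletal muscle markers were at 107743 to 111585 CPM in WT controls and 62806 to 93108 in WT runners, without overlap. That list includes Myh4, the myosin of fast glycolytic fibres, so a lower sum cannot be read as less muscle. With running in WT mice all 7 of its genes were below 0 and none passed (edgeR). The log2 difference was largest for Myh4 (-0.85 ± 0.28) and smallest for Acta1 (-0.27 ± 0.15). The mitochondrial share of counts was 20.9% to 26.4% in WT controls and 27.0% to 36.6% in WT runners, also without overlap. In FLExDUX4 mice the skeletal muscle sums were 92227 to 105477 CPM in controls and 65499 to 96224 in runners. Their mitochondrial shares were 20.5% to 29.2% in controls and 26.6% to 39.8% in runners. With mitochondrial transcripts left out of the counts, the calls of Mb and Alas1 did not change. The part of the other cells and of these skeletal muscle transcripts in the levels of Mb and Alas1 was not tested.

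Of 68 other genes of haem, iron and iron-sulphur handling, 55 were tested and 0 passed in any of the 7 comparisons by edgeR; for running averaged over genotype, 4 were higher and 1 lower at an unadjusted p under 0.05. That is 9.1% of the tested list genes, below the 11.98% of all tested genes (1328) with such a p. Their median log2 difference there was 0.10, against 0.01 over all genes. In the haem synthesis list, where 10 of 12 were tested, the smallest p-values belonged to Slc25a38, a mitochondrial glycine carrier (-0.56 ± 0.29), Alas2, the red blood cell form of the opening enzyme (0.67 ± 0.37), and Clpx, a mitochondrial protease subunit that acts on ALAS (0.19 ± 0.16). Alas2 was at 2.56 ± 0.92 CPM in WT controls and 7.73 ± 3.68 CPM in WT runners (SD, n = 3 and 4), beside the red blood cell sums above.

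The iron-sulphur cluster list was the largest, with 17 tested, of which 14 were above 0, with a median of 0.21. At an unadjusted p under 0.05, 3 were higher and 1 was lower, 4 of 17 in all (23.5%, against 11.98% of all tested genes), and none passed after adjustment. Bola3, a factor that passes clusters to mitochondrial enzymes, differed by 0.39 ± 0.11 (adjusted p = 0.0667), Fdx1, an electron donor, by 0.38 ± 0.13 (adjusted p = 0.144), and Iscu, the scaffold on which clusters are built, by 0.58 ± 0.22 (adjusted p = 0.208), all in edgeR. Bola3 was at 184 ± 17.7 CPM in WT controls and 249 ± 40.2 in WT runners, and at 204 ± 30.6 in FLExDUX4 controls and 258 ± 36.0 in FLExDUX4 runners (SD, n = 3 or 4).

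In haem breakdown and transport, 6 of 8 genes were tested, with a median of 0.20; the smallest p-values were those of the haem exporter Flvcr1 (0.67 ± 0.40), listed in the table as Mfsd7b, the haem-binding Pgrmc1 (-0.66 ± 0.45) and the biliverdin reductase Blvra (0.29 ± 0.25). In iron uptake, traffic and export, 8 of 12 were tested, with a median of -0.01, led by the iron transporter Slc11a2 (-0.35 ± 0.21), the ferroxidase Cp (0.37 ± 0.24) and the mitochondrial iron carrier Slc25a37 (-0.37 ± 0.26). Of the iron chaperones, Pcbp2 differed by -0.17 ± 0.10 and Pcbp1 by 0.10 ± 0.13. In iron regulation, 11 of 12 were tested, with a median of -0.09. Smad7, an inhibitor of BMP and TGF-beta signalling, differed by 0.70 ± 0.32 (adjusted p = 0.361, edgeR). The iron-regulatory protein Ireb2 differed by -0.34 ± 0.19 and the neogenin gene Neo1 by 0.19 ± 0.14. Of the other globins, Cygb, cytoglobin, differed by 0.36 ± 0.19 (adjusted p = 0.471).

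**Figure D4:**
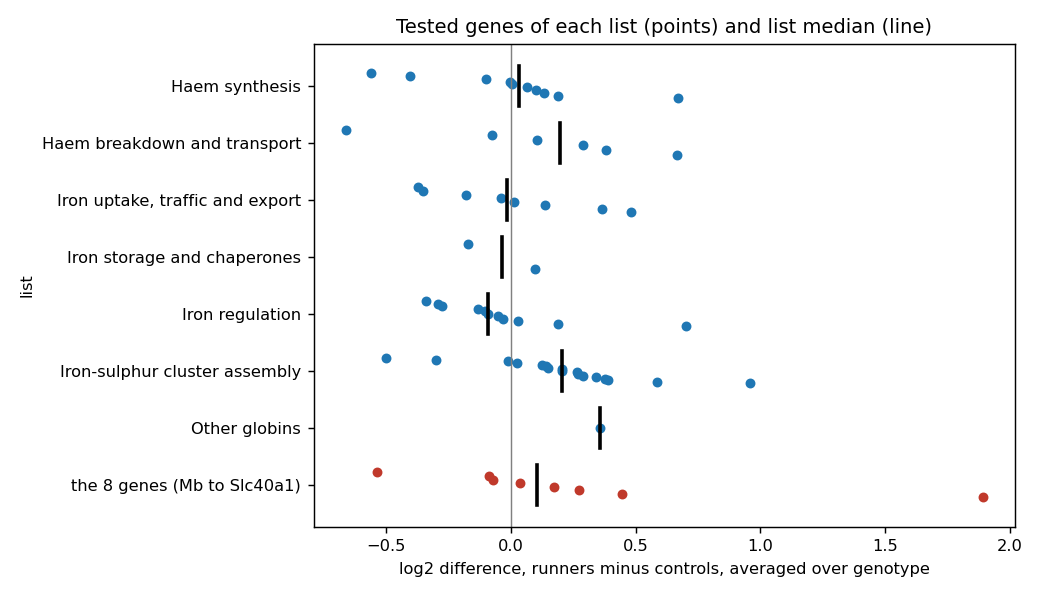
Log2 differences with running averaged over genotype (x axis) for each tested gene of 7 lists and for the 8 members (points), with the median as a black line. The iron-sulphur list has its median at 0.21 and the iron regulation list at -0.09, and Mb at 1.89 lies apart from the rest.

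**Figure D5:**
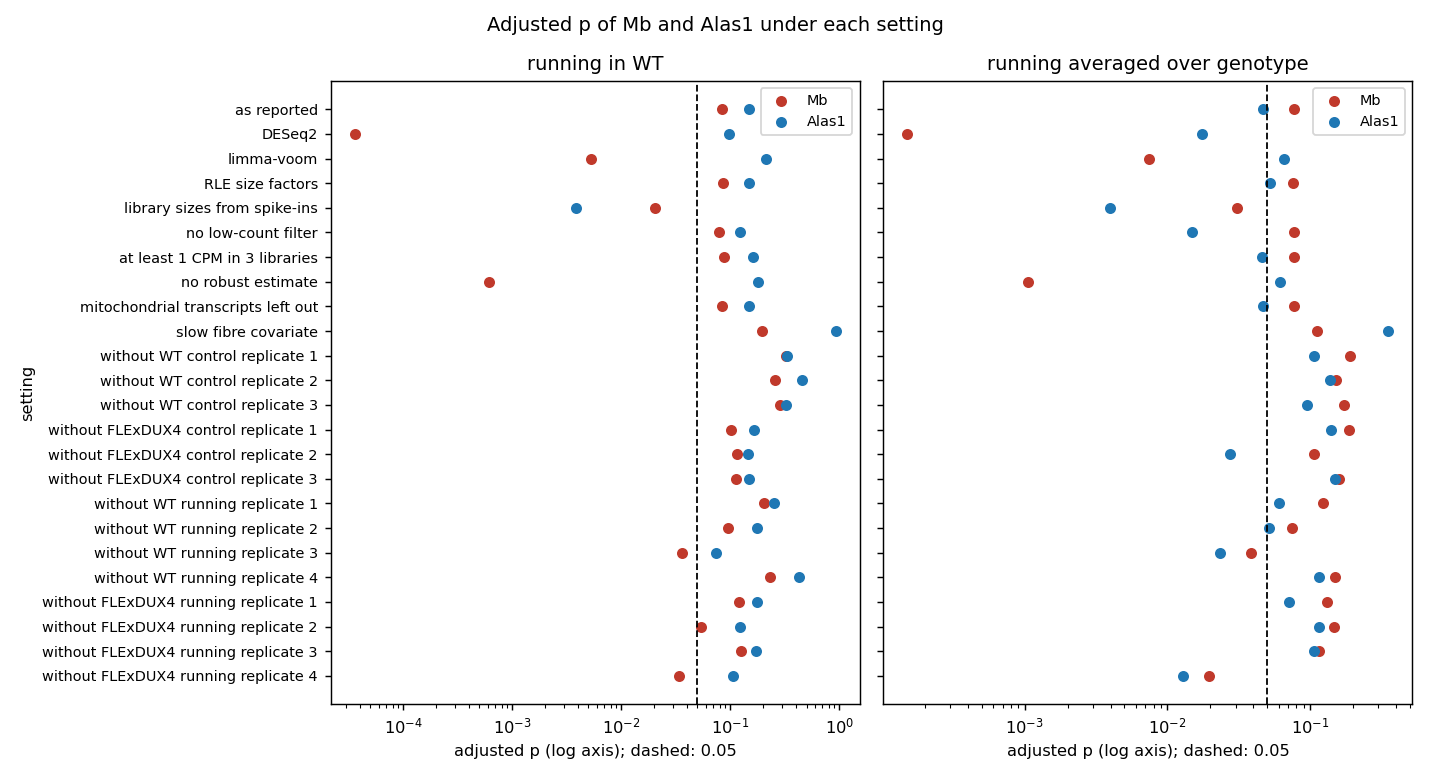
Adjusted p of Mb and Alas1 (x axis, logarithmic; dashed line at 0.05) for running in WT mice and averaged over genotype under each setting, including each mouse left out in turn. Mb spans 3.6e-05 to 0.324 in WT mice and Alas1 spans 0.00397 to 0.352 in the average, on both sides of the line.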

How the data were processed

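Raw read counts per gene and mouse were deposited by the authors in 1 table, with the counts of each group summed, log2 fold changes and p-values of their own comparisons. Per the submitters' processing notes, cutadapt 1.16, STAR 2.5.3a, featureCounts 1.6.2 and DESeq2 were used with GRCm38 and GRCh38; strand setting and annotation are not given in the sources used here. Per the labels, libraries were QuantSeq 3′ forward. The authors' p-values and log2 values were only quoted.

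From the counts, 99 spike-ins were set aside. edgeR 4.0.16 (TMM, filterByExpr with min.count 10, robust quasi-likelihood fit, 1 mean per group, all 14 mice) gave 7 contrasts with Benjamini-Hochberg adjustment over 11088 genes. The SE of each edgeR log2 difference is its absolute value divided by the square root of the test's F. The 95% intervals were built from that SE. The log2 CPM used a prior count of 2. Alternatives used DESeq2 1.42.0, limma 3.58.1, other scaling, filters and covariates, and each mouse left out. The script was tested on simulated data. Correlations used exact permutation tests computed with numpy 2.4.6, with ranks from scipy 1.17.1. Members, lists and tests were chosen with earlier results of these data known. All members were named, as were, per list, the 3 genes with the smallest p for running averaged over genotype. The 5 genes most like Mb were also named, with Gm and Rik symbols left out. Replicates are separate mice numbered in accession order. The values of 1 gene of the lists, which the rule does not name, are not reported here; it stays in the counts.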

Additional observations from a re-analysis of the deposited data

Results flagged for a closer look

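Fech in WT runner 3 was at 48.9 CPM, apart from the other 3 WT runners at 57.7 to 59.5 CPM. Its gap to the nearest was a share of 0.830 of the group's range, just above the critical value for 4 samples. Chance flags about 1 in 20 groups, and all 8 genes were screened in both groups of runners. No other value was flagged by this rule.

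The fitted running effect of Slc40a1 differed in sign between genotypes. Every WT runner was below the mean of the WT controls, and every FLExDUX4 runner was above the mean of theirs. WT runner 1 was only just below, at 38.39 CPM against a mean of 38.43 CPM. The WT estimate was -0.14, with a 95% interval of -0.53 to 0.26, so its direction is not settled. With spike-in library sizes it turned to 0.23. The difference between the effects was 0.62 on the log2 scale with an adjusted p of 0.954 (edgeR), so it did not pass.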

How the results depend on the processing

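No paired analysis was possible because the labels give the mice no shared replicate numbers. For running in WT mice, 0 members were called; DESeq2, limma-voom and no robust estimate gave 1 (Mb), spike-in library sizes 2 (Mb, Alas1), and leaving out a mouse 0 to 1. Averaged over genotype, 1 (Alas1) was called; DESeq2 and spike-ins gave 2, other size factors and the slow-fibre covariate 0, and leaving out a mouse 0 to 2. limma-voom and no robust estimate also gave 1 there, but Mb in place of Alas1. For genotype in controls, fitting only the groups compared gave 1 (Mb). Members called in the other comparisons stayed at 0 in every setting run.

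Calls over all genes for running in WT mice, 55, were 196 with DESeq2, 23 with limma-voom, 606 with spike-ins, 217 with no filter, 2 with the covariate and 0 to 197 without 1 mouse; averaged over genotype, 95 became 273 with DESeq2, 434 with spike-ins, 291 with no filter, 12 with the covariate and 17 to 286 without 1 mouse. Where 0 genes were called, the count was at most 24 for running in FLExDUX4 mice, 23 for genotype in controls, 2 in runners, 8 averaged and 11 for the interaction.

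Spike-in scaling moved the median gene by 0.36 for running in WT mice, 0.20 averaged, 0.31 for genotype in controls, 0.15 averaged and -0.32 for the interaction. It turned these uncalled differences: running in WT mice, Tfrc to 0.11, Fth1 to 0.31, Ftl1 to 0.22 and Slc40a1 to 0.23; averaged, Fech to 0.13 and Tfrc to 0.12; genotype in controls, Fth1 to 0.24 and Slc40a1 to 0.014; genotype averaged, Fech to 0.10; interaction, Hmox1 to -0.11 and Fth1 to -0.14. The slow-fibre covariate turned Fech to -0.10 and Ftl1 to 0.068 (running in WT mice), Fech to -0.059 (genotype in controls), and Mb to -0.0099 and Slc40a1 to -0.063 (genotype averaged). The cause was not tested.

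Leaving out 1 mouse turned these uncalled differences, given as ranges: running in WT mice, Ftl1 -0.42 to 0.078; running in FLExDUX4 mice, Hmox1 -0.72 to 0.076 and Tfrc -0.066 to 0.20; averaged, Fech -0.11 to 0.017; genotype in controls, Fech -0.038 to 0.22; in runners, Alas1 -0.023 to 0.15 and Ftl1 -0.41 to 0.15; averaged, Fech -0.13 to 0.0042, Fth1 -0.0034 to 0.045 and Slc40a1 -0.13 to 0.13; interaction, Alas1 -0.24 to 0.028 and Hmox1 -0.043 to 0.75. Depth limits Hmox1 (90 counts in all) and Ftl1 (307).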
